A study of Mus musculus with 8 samples.

Results

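Integrins and laminins, the receptors and ligands by which a cell holds its basement membrane, were examined in muscle stem cells sorted as quiescent of young and old mice. All rows of the deposited expression table whose symbol is that of an integrin alpha or beta chain or of a laminin chain were taken. There were 38 such genes of 24630, of which 3 were treated apart as receptors of the stem cell niche (Itga7, Itgb1 and Itga9), 24 were other integrins and 11 were laminin chains. The young group was 4 male C57BL/6 mice aged 4 months and the old group 4 male C57BL/6 mice aged 22 months, untreated as far as the labels say, with 1 library per animal. In both groups the cells came from limb muscle and were sorted as CD45-, CD31-, Sca1- and VCAM+. They were not cultured, and the labels call them quiescent.

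An integrin is a pair of membrane-spanning chains, alpha and beta, that binds matrix outside the cell and joins the actin cytoskeleton through talin, kindlin and their partners inside. A laminin is a trimer of an alpha, a beta and a gamma chain, assembled in the cell and polymerised into the basement membrane. The muscle stem cell lies between the fibre and this membrane, and the integrin of alpha 7 and beta 1 is its main laminin receptor.

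Among the 38 genes, 12 had a mean of at least 5 RPKM (reads per kilobase of a gene's exons, per M reads of the library, M being the prefix mega) and were tested, 10 lay between 1 and 5 RPKM and 16 were under 1 RPKM. At this filter 0 members were higher and 2 were lower in old cells, Itga8 and Lamc1, and 10 did not pass the threshold (limma, adjusted p under 0.05 over all 5703 genes tested). For comparison, 12.3% of all tested genes were higher and 12.7% were lower. At an unadjusted p under 0.05, 6 members were lower and 0 higher, against 19.6% and 18.6% of all tested genes, and limma-voom on recovered reads also called 0 higher. The members had a median log2 difference (old minus young) of -0.30, and all genes tested one of -0.01. Of these 12, 3 (Itgav and Itgb5 among them) had a deposited young mean under 5 RPKM and so passed the filter through the old group.

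These values are on library totals, that is, each value is a share of the reads in genes of its library. The deposited scale differs between the ages: its factor to library totals was 1.14 to 1.64 in young and 0.678 to 0.849 in old libraries, so that on it the 5703 tested genes have a median log2 difference of 0.64. With the deposited values, 5 of the 12 members were higher (Itgb1, Itga5, Itgav and Itgb5 among them) and 0 were lower, against 68.1% higher and 1.12% lower among all tested genes, and the members' median was 0.37. Reads in genes numbered 1.91 to 6.56 M in young and 20.1 to 24.9 M in old libraries, so depth and age cannot be told apart. Of the 10 muscle stem cell markers examined, all were detected, and they summed to between 3250 and 4228 RPKM in the young and between 3307 and 4092 RPKM in the old libraries, with Sdc4 the largest term (means 1907 and 1715 RPKM). Of the 10, on library totals, 2 were higher in old cells (Myod1 and Vcam1) and 5 lower (Pax7, Cdh15, Chodl, Calcr and Fgfr4), with a median of -0.45. With the deposited values 4 were higher and 1 lower, against 68.1% and 1.12% of all tested genes, with a median of 0.22. Pax7, the defining factor of these cells, averaged 17.6 RPKM in young and 10.7 in old cells, and Myod1, which marks commitment and activation, 468 and 809. Whether these differences bear on the members was not tested. The genes of the 3 negative sorting markers were not at 0: Ptprc (CD45) averaged 1.43 RPKM in young and 0.197 in old cells, Pecam1 (CD31) 16.3 and 10.1, and Ly6a (Sca1) 21.2 and 15.6. The young Ptprc mean was within the range of low-level signal. The level that 5% of olfactory and vomeronasal receptor genes exceed was 0.510 to 3.65 RPKM in young libraries. In old libraries that level was 0.0885 to 0.148 RPKM.

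The sequences just upstream of 4 of these genes are shown because they encode the chains of the receptors that bind the arginine-glycine-aspartate motif, alpha 5, alpha v and alpha 8, and their partner beta 1, of which only Itga8 passed the test on library totals. Each run is the 250 bases before the RefSeq start site on GRCm38.p6, read 5′ to 3′ on the gene's strand. Capitals mark matches, on either strand, to GGGCGG (the GC box) and GGAATG (the TEAD motif); CAGCTG (an E-box) and TGANTCA (AP-1) were searched too, and none of these 4 windows held them.
Itgb1, chr8:128685404-128685653, plus strand: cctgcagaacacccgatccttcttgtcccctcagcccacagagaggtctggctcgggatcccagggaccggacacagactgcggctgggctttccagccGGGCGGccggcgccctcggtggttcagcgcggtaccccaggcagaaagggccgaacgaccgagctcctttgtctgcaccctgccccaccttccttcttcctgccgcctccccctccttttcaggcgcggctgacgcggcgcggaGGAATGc
Itga5, chr15:103366792-103367041, minus strand: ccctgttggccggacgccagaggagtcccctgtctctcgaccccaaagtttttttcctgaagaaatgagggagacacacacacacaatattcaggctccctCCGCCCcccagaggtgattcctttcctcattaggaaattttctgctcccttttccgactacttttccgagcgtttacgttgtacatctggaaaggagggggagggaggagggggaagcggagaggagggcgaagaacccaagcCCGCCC
Itgav, chr2:83724147-83724396, plus strand: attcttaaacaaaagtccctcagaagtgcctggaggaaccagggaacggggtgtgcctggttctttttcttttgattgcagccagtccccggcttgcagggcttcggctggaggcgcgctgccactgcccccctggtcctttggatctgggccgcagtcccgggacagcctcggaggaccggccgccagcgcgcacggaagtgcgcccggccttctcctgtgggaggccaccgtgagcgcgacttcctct
Itga8, chr2:12301945-12302194, minus strand: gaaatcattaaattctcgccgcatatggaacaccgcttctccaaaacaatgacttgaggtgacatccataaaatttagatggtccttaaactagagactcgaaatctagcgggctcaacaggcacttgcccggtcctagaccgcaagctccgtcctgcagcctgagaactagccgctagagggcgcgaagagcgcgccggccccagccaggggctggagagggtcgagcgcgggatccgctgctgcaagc
The Itgb1 window was 68% G and C, that of Itgav 64.4%, that of Itga8 56.4% and that of Itga5 55.6%. Itga5 held 2 GC boxes and Itgb1 held 1 GC box and 1 TEAD motif, while Itgav and Itga8 held none of the 4 motifs. RefSeq gave 27 windows for 24 of the 38 genes, and the GC box occurred in 9 of these windows against 32.7% of all 32851 windows. The E-box occurred in 7 windows (13% of all), the TEAD motif in 3 (12.6% of all) and the AP-1 motif in 1 (6.75% of all). These are matches of letters only.

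Of the niche receptors, Itga7 and Itgb1 were abundant in every library and neither passed the threshold on library totals, while Itga9 was near the lower limit of the data. Itga7 (GRCm38 chr10:128933818-128958282, plus strand) stood at 120, 99.8, 161 and 128 RPKM in young replicates 1 to 4 and at 93.1, 86.7, 112 and 105 RPKM in old replicates 1 to 4. The means were 127 ± 25.4 and 99.2 ± 11.4 RPKM (SD, n = 4 each). Old replicates 1 and 2 lay below all young libraries, and the groups overlapped. The log2 fold change was -0.34 ± 0.15 (SE) with an adjusted p of 0.124 (limma). Without young replicate 2, the library with the fewest reads, it was -0.45 with an adjusted p of 0.0364, without young replicate 3 it was -0.22 with an adjusted p of 0.303, and on the deposited scale it had the other sign, 0.35, with an adjusted p of 0.203. That value was below the deposited median of all tested genes, 0.64.

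The RPKM of Itga7 rests on the gene length that the table implies, 4013 bases, whereas the merged exons in GENCODE M21 span 8092 bases. With the same reads divided by the annotated length the means would be 63.07 RPKM in young and 49.17 RPKM in old cells. Reads in the further annotated bases, if any, are not counted in these means. The place of Itga7 above or below Itgb1 may therefore depend on that length. The comparison between ages does not depend on it.

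Itgb1 (chr8:128685654-128733200, plus strand) encodes the beta chain shared by alpha 7, alpha 9, alpha 5 and most other matrix receptors. It stood at 72.5, 90.6, 74.4 and 81.1 RPKM in young and at 99.3, 81.7, 73.2 and 87.3 RPKM in old libraries. The groups overlapped, with the highest and the second lowest of the 8 values both in old animals. The log2 fold change was 0.10 ± 0.13 (SE), adjusted p 0.615 (limma), from means of 79.7 ± 8.18 and 85.4 ± 10.96 RPKM (SD, n = 4 each). On the deposited scale every old library was above every young one and the log2 fold change was 0.78, adjusted p 0.00287 (limma). On that scale 61.2% of all tested genes had every old library above the young, and the median log2 fold change was 0.64. With 1 library left out at a time the log2 fold change of Itgb1 lay between 0.02 and 0.17 on library totals.

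Itga9 (chr9:118606690-118901003, plus strand) encodes the alpha chain that with beta 1 binds tenascin C and VCAM1. It stood at 0.917, 1.97, 0.912 and 1.07 RPKM in young and at 0.713, 0.288, 0.477 and 0.450 RPKM in old libraries, from 141 and 321 reads in all. Every old library was below every young one on library totals, and the groups overlapped on the deposited scale. It was not tested, since its mean was under 5 RPKM. As a gauge of low-level signal, 1411 olfactory and vomeronasal receptor genes were taken, on the assumption that most of them are silent in muscle. The level that 5% of them exceed was read in each library. Itga9 was above this level in 1 of 4 young and in 4 of 4 old libraries.

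**Figure D1:**
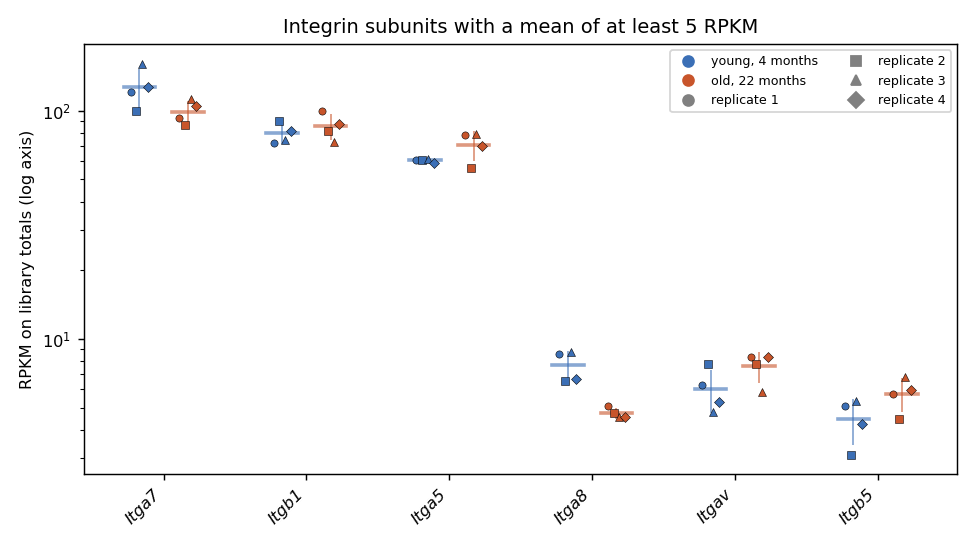
RPKM on library totals of the integrins with a mean of at least 5 RPKM in each of the 4 young and 4 old libraries; the axis is logarithmic, points are libraries, horizontal lines are group means and vertical lines are 1 SD. Itga8 is the only one of these whose old libraries, 4.53 to 5.07 RPKM, all lie below the young, 6.53 to 8.80 RPKM.

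Of the other integrins, Itga8 fell and the receptors for fibronectin and vitronectin did not pass the threshold on library totals. Itga8 (chr2:12106632-12301922, minus strand), whose product pairs with beta 1 and binds nephronectin, stood at 8.61, 6.53, 8.80 and 6.70 RPKM in young libraries. In old libraries it stood at 5.07, 4.73, 4.53 and 4.53 RPKM. The groups did not overlap. The means were 7.66 ± 1.21 and 4.71 ± 0.256 RPKM (SD, n = 4 each), with a log2 fold change of -0.59 ± 0.14 (SE) and an adjusted p of 0.0113 (limma). On the deposited scale the log2 fold change was 0.00, adjusted p 0.996. An antisense gene, E030013I19Rik, covers 5.05% of its exon bases, and the library kit does not mark the strand, so reads there cannot be told apart. The same holds for 6.27% of the exon bases of Lamc3, 5.90% of those of Itgav and 3.86% of those of Lama2, which antisense or opposite-strand genes cover.

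Itga5 (chr15:103344286-103366763, minus strand), the alpha chain of the classical fibronectin receptor, was the most even member in young cells, at 60.7, 61.1, 61.6 and 58.9 RPKM. It stood at 78.5, 56.1, 79.3 and 69.9 RPKM in old cells. Old replicate 2 was below every young library and the other 3 were above. The log2 fold change was 0.21 ± 0.13 (SE), adjusted p 0.243 (limma). On the deposited scale it was 0.90, adjusted p 0.000923 (limma), beside a median of 0.64 for all tested genes. On library totals without old replicate 2 it was 0.32, adjusted p 0.0782 (limma).

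Itgav (chr2:83724397-83806916, plus strand) encodes the alpha chain that pairs with several beta chains, among them beta 5. It stood at 6.29, 7.74, 4.80 and 5.28 RPKM in young and at 8.33, 7.80, 5.83 and 8.35 RPKM in old libraries. Old replicate 3 lay among the young values and the other 3 old libraries above them. The log2 fold change was 0.29 ± 0.17 (SE) with an adjusted p of 0.215 (limma). On the deposited scale it was 0.90 with an adjusted p of 0.000279 (limma), beside a median of 0.64 for all tested genes.

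Itgb5 (chr16:33829665-33949338, plus strand), whose product joins alpha v in the vitronectin receptor, stood at 5.08, 3.11, 5.35 and 4.23 RPKM in young libraries. In old libraries it stood at 5.75, 4.45, 6.81 and 5.95 RPKM. Old replicate 2 lay among the young values. The log2 fold change was 0.32 ± 0.18 (SE), adjusted p 0.214 (limma). On the deposited scale it was 0.88, adjusted p 0.000848 (limma), beside a median of 0.64 for all tested genes. On library totals it was 0.19 (adjusted p 0.411, limma) without young replicate 2. It was 0.14 (adjusted p 0.702, limma) with all libraries thinned to the fewest reads.

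Between 1 and 5 RPKM lay 7 further integrins, and in each of them the young and old libraries overlapped. With the filter lowered to 1 RPKM, 22 members were tested, and 0 were higher and 3 lower (Itga8, Lamc1 and Lamb1), against 7.27% higher and 22.3% lower among all 11096 genes. With the deposited values at this filter 7 were higher and 0 lower (42.1% and 5.34% of all genes), and with the mean level of the olfactory and vomeronasal receptor genes subtracted, a step added after the data were seen, 0 were higher and 2 lower (8.21% and 11.3%). The laminin receptor chain Itga6 had a log2 fold change of -0.60 ± 0.22 (SE), adjusted p 0.0582 (limma), from 2.43, 3.53, 1.66 and 2.22 RPKM in young and 1.72, 0.619, 1.44 and 1.36 RPKM in old libraries. Old replicate 1 lay above the lowest young library and the other 3 below it. At this filter the median of all 11096 genes was -0.195. With the mean olfactory and vomeronasal receptor level subtracted, Itga6 was at -0.42 (adjusted p 0.168, limma). On the deposited scale Itga6 was at -0.17 (adjusted p 0.451, limma). The usual partner of alpha 6 in hemidesmosomes, Itgb4, was at -0.07, adjusted p 0.821. The collagen receptor chains Itga1 and Itga11 were at -0.32 (adjusted p 0.184) and -0.15 (adjusted p 0.684). Itgb8, which with alpha v binds latent TGF-beta, was at -0.27, adjusted p 0.382. The leukocyte chain Itgb2 spread over 1.22 to 4.25 RPKM in young and 0.457 to 2.45 RPKM in old libraries and was at -0.47 (adjusted p 0.268), and the platelet chain Itga2b at 0.35 (adjusted p 0.217). With the mean receptor level subtracted, Itgb4 (0.22), Itga11 (0.01) and Itgb8 (0.02) had the other sign. Itga1 (-0.17), Itgb2 (-0.24) and Itga2b (0.63) kept theirs. Itgb4 and Itgb8 were above the level that 5% of the receptor genes exceed in 1 of 4 young libraries, and Itgb2 and Itga2b in 2.

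Of the 11 laminin chains, Lamc1 fell, and Lama2 and Lamb1 were also below every young library in every old one without passing the threshold. Together with Itga8 these made 4 of the 12 tested members whose old libraries were all lower, and 0 whose old libraries were all higher; among all tested genes the shares were 13.4% and 13.8%. With the deposited values 5 members had every old library above the young and 0 below, against 61.2% and 0.473% of all tested genes.

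Lamc1 (chr1:153218922-153332786, minus strand) encodes the gamma 1 chain found in most laminins. It stood at 20.1, 25.7, 23.0 and 23.3 RPKM in young and at 15.8, 12.7, 13.9 and 18.1 RPKM in old libraries. The groups did not overlap. The means were 23.0 ± 2.30 and 15.1 ± 2.34 RPKM (SD, n = 4 each), and the log2 fold change was -0.58 ± 0.13 (SE), adjusted p 0.00971 (limma). On the deposited scale it was 0.08, adjusted p 0.71.

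Lama2 (chr10:26980036-27619758, minus strand) encodes the alpha 2 chain, the main laminin alpha chain of the muscle fibre's basement membrane. It stood at 17.8, 15.8, 18.2 and 15.4 RPKM in young and at 13.9, 11.4, 15.3 and 12.1 RPKM in old libraries. The highest old value lay just below the lowest young one. The log2 fold change was -0.33 ± 0.12 (SE), adjusted p 0.0703 (limma), and on the deposited scale 0.32, adjusted p 0.128.

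Of the beta chains, Lamb1 (chr12:31265234-31329644, plus strand) stood at 6.89, 6.43, 6.34 and 7.30 RPKM in young and at 4.92, 3.03, 6.19 and 4.21 RPKM in old libraries. Its log2 fold change was -0.50 ± 0.18 (SE), adjusted p 0.0588 (limma), and it was called at the filter of 1 RPKM, adjusted p 0.0471. Lamb2 (chr9:108479736-108490530, plus strand), whose product is enriched at the neuromuscular junction, was the most abundant laminin chain, at 33.1, 25.7, 40.5 and 24.7 RPKM in young and 32.3, 16.5, 27.4 and 26.7 RPKM in old libraries. The groups overlapped widely for Lamb2, with a log2 fold change of -0.27 ± 0.21 (SE), adjusted p 0.371 (limma), or -0.13 (adjusted p 0.688) without young replicate 3.

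Lamc3 (chr2:31887291-31946539, plus strand) stood at 7.68, 4.72, 7.79 and 5.86 RPKM in young and at 5.74, 3.35, 4.59 and 4.32 RPKM in old libraries. Its log2 fold change was -0.44 ± 0.19 (SE), adjusted p 0.103 (limma).

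Between 1 and 5 RPKM lay 3 laminin alpha chains, each with overlapping groups. Lama4, a chain of vessel basement membranes, stood at 3.38, 4.59, 2.92 and 3.52 RPKM in young and at 3.12, 1.22, 2.86 and 2.00 RPKM in old libraries. Its log2 fold change was -0.51 ± 0.21 (SE), adjusted p 0.0842 (limma, filter of 1 RPKM), beside a median of -0.195 for all genes at this filter. With the mean olfactory and vomeronasal receptor level subtracted, Lama4 was at -0.37 (adjusted p 0.212, limma). On the deposited scale Lama4 was at -0.0053 (adjusted p 0.981, limma). Lama5 was at -0.12, adjusted p 0.671, and Lama3, an epithelial chain, at 0.10, adjusted p 0.647. With the same subtraction Lama5 was at 0.03 and Lama3 at 0.25. Old replicate 2 had the lowest old value in 9 of 9 laminin chains with a mean of at least 1 RPKM and in 8 of 13 integrins, against 44.7% of all 11096 such genes, a pattern that was noticed after the values were seen. Without that library Itga8 and Lamc1 were still called, while Lamb2 was at -0.08 (adjusted p 0.79, limma), Lamb1 at -0.35 (adjusted p 0.147) and Lama2 at -0.27 (adjusted p 0.182).

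**Figure D2:**
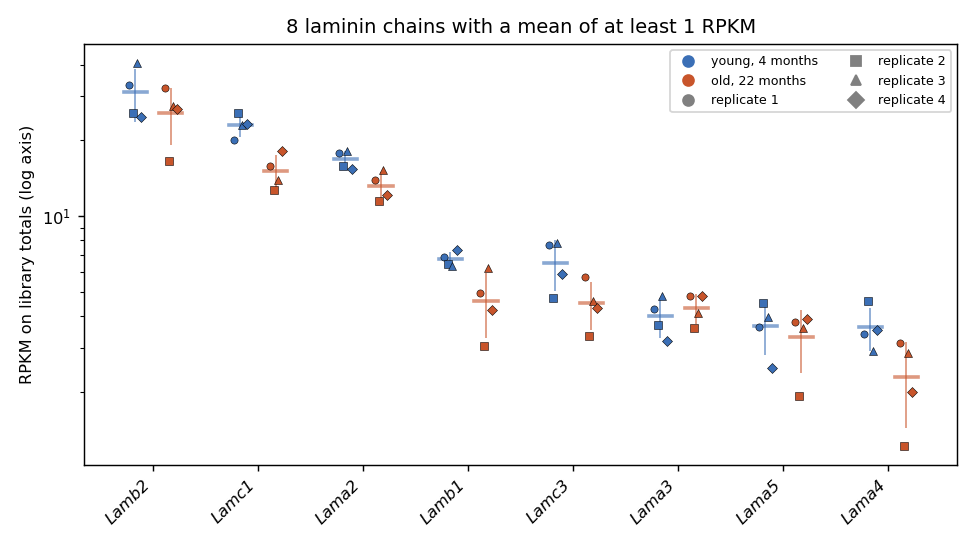
RPKM on library totals of 8 of the 9 laminin chains with a mean of at least 1 RPKM in each of the 4 young and 4 old libraries. The axis is logarithmic, points are libraries, horizontal lines are group means and vertical lines are 1 SD. In Lamc1, Lama2 and Lamb1 every old library lies below every young one, and in the other 5 chains shown the groups overlap.

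**Figure D3:**
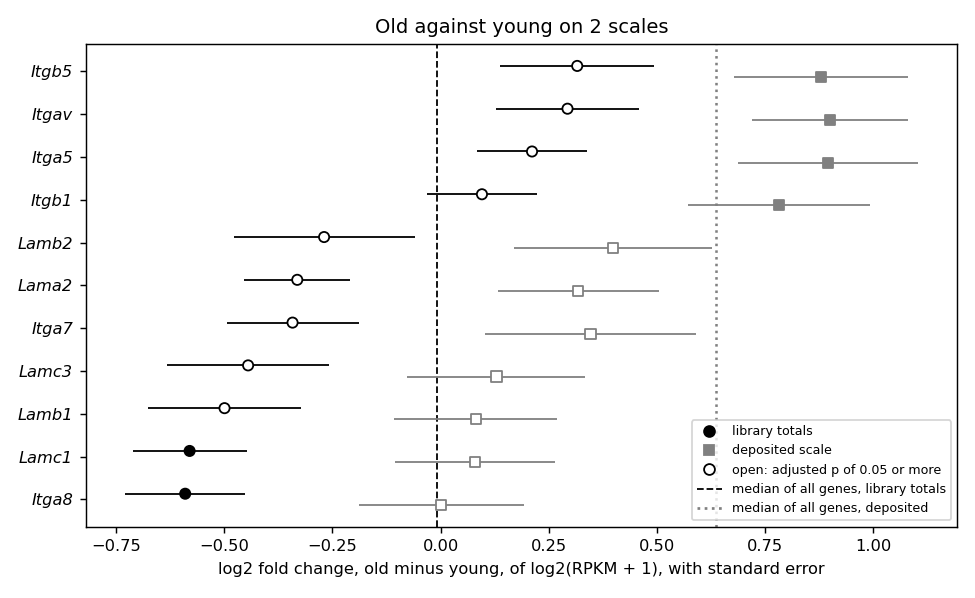
Log2 fold change, old minus young, with its SE for 11 of the 12 tested members, on library totals (circles) and as deposited (squares); filled symbols passed the threshold, and the dashed and dotted lines are the medians of all tested genes on each scale. All 11 lie higher on the deposited scale, where 4 of them are called higher, whereas 2 are called lower on library totals.

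A ratio of 2 genes in the same library does not depend on the scale, and 6 such ratios could be tested. For Itga7 over Itgb1 the ratio was 1.66, 1.102, 2.16 and 1.57 in young and 0.937, 1.06, 1.53 and 1.20 in old libraries. The difference of its mean log2 ratio was -0.44 ± 0.25 (SE), with an exact two-sided permutation p of 0.143, adjusted 0.343 over the 6 ratios. The groups overlapped, and the smallest p that 70 assignments of 4 against 4 allow is 0.0286. After adjustment over the 6 ratios, a ratio that alone reached this p would still miss the threshold. The test therefore could not call any ratio by itself, and a ratio that did not pass is not thereby shown to be unchanged.

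The other ratios did not pass either, under the same limit of the test. Itgav over Itgb1 differed by 0.24 ± 0.14 (log2, SE; exact permutation p 0.171, adjusted 0.343) and Itga5 over Itgb1 by 0.12 ± 0.16 (exact permutation p 0.6, adjusted 0.72). Among the laminins, Lama2 over Lamc1 differed by 0.26 ± 0.19 (exact permutation p 0.171, adjusted 0.343) and Lamb2 over Lamc1 by 0.33 ± 0.27 (exact permutation p 0.229, adjusted 0.343). Lamb1 over Lamc1 differed by 0.01 ± 0.24 (exact permutation p 1, adjusted 1).

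**Figure D4:**
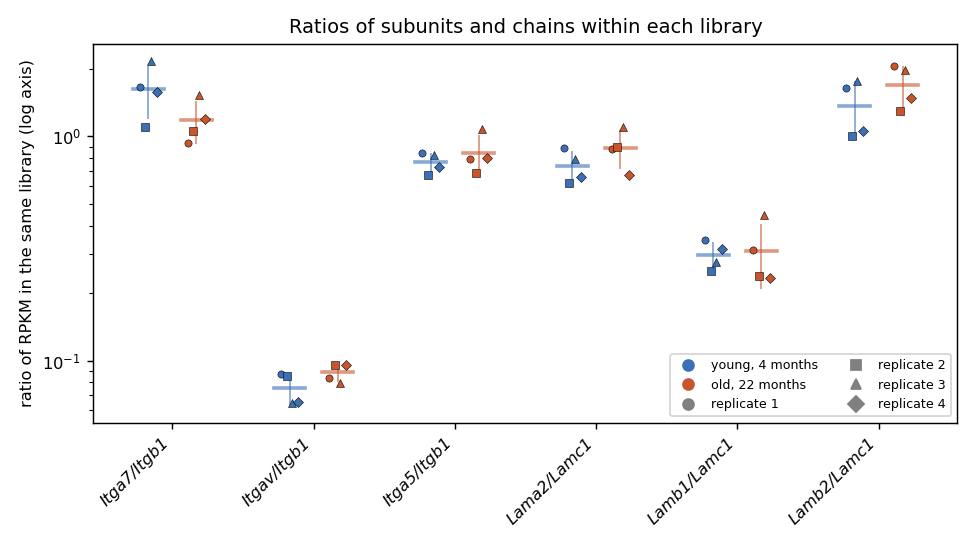
Ratio of RPKM within each library for the 6 tested pairs, on a log axis, in 4 young and 4 old libraries; horizontal lines are group means and vertical lines are 1 SD. The groups overlap in every pair; for Itga7 over Itgb1 the young libraries span 1.102 to 2.16 and the old 0.937 to 1.53.

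The 16 members under 1 RPKM were Itga9, the collagen receptor chains Itga2 and Itga10, the laminin receptor chain Itga3, the leukocyte chains Itga4, Itgad, Itgae, Itgal, Itgam, Itgax and Itgb7, the beta chains Itgb2l, Itgb3 and Itgb6, and the laminin chains Lama1 and Lamb3. In 13 of them every old library was below every young one, and Itga2, Itgam and Itgb7 overlapped. The same was found in 65.6% of all 12365 genes under 1 RPKM with a read and in 69.7% of 1368 olfactory and vomeronasal receptor genes with a read. The level that 5% of the receptor genes exceed lay between 0.510 and 3.65 RPKM in the young libraries and between 0.0885 and 0.148 RPKM in the old. Of the 16 members, 14 were above it in at most 1 young library, 0 were above it in all 4 young libraries, and 5 (Itga9, Itga2, Itga3, Itgb3 and Itgb7) were above it in all 4 old libraries.

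Of these low members, Itgb6, an epithelial partner of alpha v, stood at 1.88, 3.31, 0.386 and 1.63 RPKM in young and at 0.147, 0.102, 0.0553 and 0.216 RPKM in old libraries. It was above the receptor gene level in 2 of 4 young and 2 of 4 old libraries. Lama1, a laminin chain of early embryos, stood at 0.936, 1.43, 0.577 and 0.554 RPKM in young and at 0.0262, 0.0423, 0.0459 and 0.0808 RPKM in old libraries, above that level in 1 young and 0 old libraries. Itgal, the alpha chain of a leukocyte adhesion receptor, was at 0.929 to 1.19 RPKM in young and 0.102 to 0.387 RPKM in old libraries, above it in 1 young and 3 old libraries. The mean of the olfactory and vomeronasal receptor genes was 0.210 to 0.996 RPKM in young and 0.0342 to 0.0518 RPKM in old libraries.

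**Figure D5:**
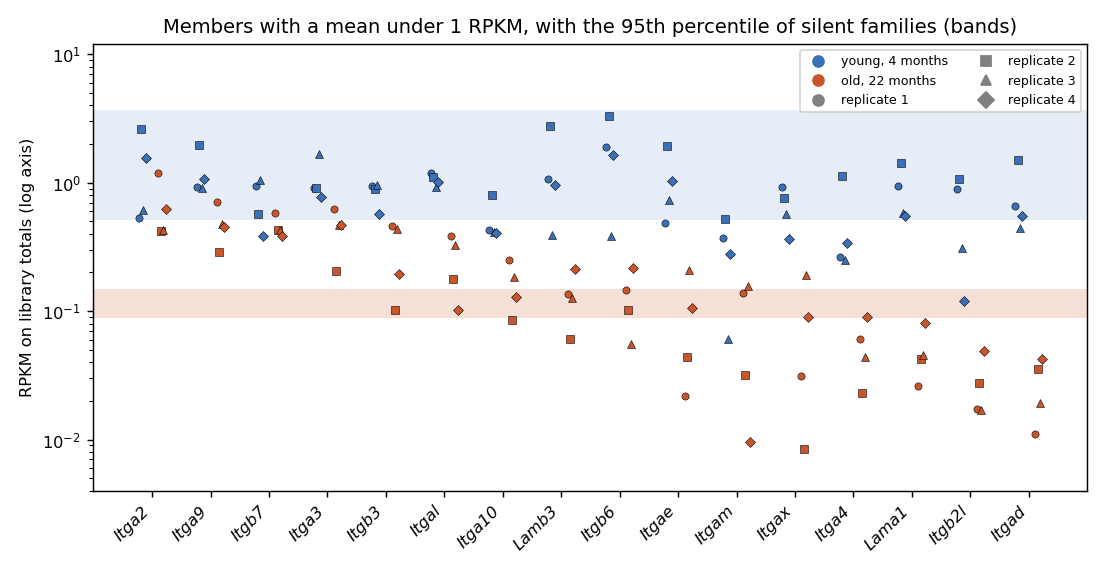
RPKM on library totals, on a log axis, of the 16 members under 1 RPKM in 4 young and 4 old libraries, with bands for the range over libraries, in each group, of the level that 5% of olfactory and vomeronasal receptor genes exceed. The young band spans 0.510 to 3.65 RPKM and the old band 0.0885 to 0.148 RPKM. Where a gene has no read in a library, the point is the small value that replaces 0 in the table.

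Exons of Itgam and Itga10 are shared with other genes on the same strand, 68.7% of the bases of Itgam with Gm49368 and 33.5% of those of Itga10 with Gm42957. Values of these members are uncertain for that reason.

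Inside the cell, talin, vinculin and other focal adhesion proteins couple integrins to actin. Counts of the gene lists that follow are to be read against the shares of all tested genes, 12.3% higher and 12.7% lower on library totals and 68.1% higher and 1.12% lower on the deposited scale. Of 19 tested genes of the focal adhesion list 0 were higher and 3 lower, with a median of -0.23 (log2), and with the deposited values 10 were higher and 0 lower, with a median of 0.43. On library totals the scaffold Bcar1 fell by 0.48 on the log2 scale (adjusted p 0.0479, limma) and the actin regulator Zyx by 0.43 (adjusted p 0.0410, limma). With the deposited values neither was called and the sign was the other, 0.12 (adjusted p 0.574, limma) and 0.25 (adjusted p 0.277, limma). Both were below the deposited median of all tested genes, 0.64.

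Among 16 tested genes of integrin activity and trafficking, 2 rose and 2 fell, near the shares of all tested genes, with a median of -0.05. The tetraspanin Cd63 rose by 0.53 (adjusted p 0.0132, limma) and Slc3a2, a chain of the CD98 complex that binds beta integrins, by 0.48 (adjusted p 0.0271, limma). The small GTPase Rap1b, which activates integrins, fell by 0.69 (adjusted p 0.0251, limma), and Rsu1, a partner of the ILK complex, fell by 0.39 (adjusted p 0.0360, limma). On the deposited scale 9 were higher and 0 lower. There Cd63 was at 1.229 (adjusted p 0.00022, limma) and Slc3a2 at 1.175 (adjusted p 0.00024, limma). Rap1b, at -0.0017 (adjusted p 0.995, limma), and Rsu1, at 0.24 (adjusted p 0.268, limma), were not called there.

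Of 11 tested genes of laminin's partners in the basement membrane, 0 were higher and 7 lower, against 12.3% and 12.7% of all tested genes, with a median of -0.70, and on the deposited scale 1 was higher and 3 lower, against 68.1% and 1.12%, with a median of -0.06. Dag1 encodes dystroglycan, the other main laminin receptor of muscle, and stood at 135, 119, 185 and 141 RPKM in young and at 55.8, 40.4, 66.6 and 45.01 RPKM in old libraries. It fell by 1.47 (adjusted p 0.000542, limma), and with the deposited values by 0.78 (adjusted p 0.00732). Sparc, a collagen-binding protein, fell by 1.38 (adjusted p 0.000621, limma), and with the deposited values it was at -0.68 (adjusted p 0.0190, limma).

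Of 14 tested genes of other integrin ligands 3 rose and 3 fell, against 12.3% and 12.7% of all tested genes, with a median of -0.23, and on the deposited scale 6 were higher and 0 lower, against 68.1% and 1.12%. Tnc, which encodes tenascin C, a ligand of alpha 9 and of alpha v integrins, stood at 13.7, 15.0, 19.9 and 13.02 RPKM in young and at 51.8, 24.8, 41.9 and 48.8 RPKM in old libraries. It rose by 1.35 on library totals (adjusted p 0.00211, limma) and by 2.01 on the deposited scale (adjusted p 5.5e-07, limma). On library totals the matrix protein Ccn2 rose by 0.81 (adjusted p 0.0354, limma). Its relative Ccn1 fell by 0.94 (adjusted p 0.0126, limma), and the junction protein Jam2 fell by 0.90 (adjusted p 0.0146, limma). On the deposited scale Ccn2 was at 1.506 (adjusted p 5.2e-05, limma). Ccn1, at -0.24 (adjusted p 0.4145, limma), and Jam2, at -0.31 (adjusted p 0.173, limma), were not called there.

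Summed markers of other cell types were detected in all libraries, and in bulk RNA fewer cells of a type and less RNA per cell cannot be told apart. The 7 tenocyte markers lay, summed, between 200 and 312 RPKM in young animals and, without overlap, between 517 and 1576 RPKM in old ones, and 5 of 6 tested were higher. Tnc is also expressed by tenocytes, so the part of these cells in its value was not tested. The 10 pericyte and smooth muscle markers summed to 225 to 272 RPKM in the young and 118 to 259 RPKM in the old libraries, and 2 of 7 tested were lower. The 11 endothelial markers summed to 118.5 to 146 RPKM in the young and 46.0 to 121 RPKM in the old libraries, and 0 of 6 tested were called, with a median of -0.78. Fibro-adipogenic markers (13 genes) summed to 1785 to 2330 RPKM and 1472 to 2575 RPKM, with Gsn the largest term (means 1266 and 1113 RPKM). Of 9 tested Dcn, Fbln1 and Mfap4 were higher and Col1a1 was lower. Muscle fibre markers (10 genes) summed to 167 to 385 RPKM and 62.1 to 396 RPKM, and of 6 tested Atp2a1 was lower. Neither of the other lists had a called gene among 3 tested. Schwann cell markers (9 genes) summed to 28.1 to 35.7 RPKM and 20.5 to 41.3 RPKM, and leukocyte markers (13 genes) to 54.1 to 114.3 RPKM and 47.9 to 114.5 RPKM. Cd14 was the largest leukocyte term (means 30.2 and 46.2 RPKM). Several markers of these lists, such as Cd52, Tyrobp, Sox10 and Kcna1 (young means 1.59, 1.75, 1.18 and 0.937 RPKM), were within the range of low-level signal in young libraries, 0.510 to 3.65 RPKM. These calls are on library totals, where 12.3% of all tested genes were higher and 12.7% lower. With the deposited values (68.1% and 1.12%), 5 tenocyte, 3 fibro-adipogenic, 2 Schwann, 2 leukocyte and 1 pericyte and smooth muscle markers were higher. There 1 fibro-adipogenic marker was lower, and 0 endothelial and 0 muscle fibre markers were called. No marker of these lists was at 0 reads in all libraries, and the part of these cells in the values of Itga8 and the laminin chains was not tested. Old replicate 2 had the lowest old sum in 6 of the 8 lists, all but those of muscle stem cells and leukocytes.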

How the data were processed

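Messenger RNA was measured in 8 libraries, 4 young and 4 old, 1 animal each. Per the labels' protocols, oligo(dT)-primed SMARTer cDNA was made from sorted cells. Per the submitters' processing notes, Trim Galore, STAR, featureCounts, Subread and edgeR were used with mm10 and GRCm38; no version is stated in these notes. The authors deposited RPKM for 24630 genes, in which a small value stands in place of 0. Of 23461 genes with a read, 18817 had RPKM values that were whole multiples of 1 read (tolerance 0.001 reads) at the annotated length. For the other 4644 the smallest length that made them whole was searched. Wholeness was thus fixed in those genes, and their reads are known only up to a common divisor. The reads per gene and library gave RPKM on library totals. Implied lengths equalled GENCODE M21 in 80.2% of genes and in 30 of the 38 members. The test was limma-trend 3.58.1 (R 4.3.3) on log2(RPKM + 1), which understates changes of low genes, for genes with a deposited mean of at least 5 RPKM, adjusted by Benjamini-Hochberg, threshold 0.05. On simulated data it called 36% of 50 genes with a 1.5-fold change, 92% of 50 with a 2-fold change and 100% of 50 with a 3-fold change. A member that did not pass is therefore not shown to be unchanged. The design assumed normalized values, so no count test was the main one. Alternatives were the deposited scale, other scaling, pseudocount 0.1, filters of 1 RPKM or none, limma without trend, limma-voom, thinning, a replicate block, background subtraction and leaving out libraries. Tested members were named, except 1 that is counted but not reported here, and of each pathway list the 2 called genes with the largest change per direction. Members and lists were chosen with earlier results of these data known.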

Additional observations from a re-analysis of the deposited data

Results flagged for a closer look

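In 3 of 58 groups of 4 libraries examined, 1 library stood far from the other 3, where chance gives about 1 in 20 such groups. Itga9 was at 1.972 RPKM in young replicate 2 against 0.912 to 1.07 RPKM in the other young libraries. Itga11, a collagen receptor chain, was at 4.892 RPKM in the same library against 2.16 to 2.53 RPKM in the others. Lama5 was at 1.925 RPKM in old replicate 2 against 3.58 to 3.89 RPKM in the other old libraries.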

How the results depend on the processing

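Itga8 and Lamc1 were called lower in 18 of the 19 alternatives run, the exception being the deposited scale. There the log2 fold changes had the opposite sign for Itga7 (0.35), Itga8 (0.0013), Lama2 (0.32), Lamb1 (0.0812), Lamb2 (0.40), Lamc1 (0.0794) and Lamc3 (0.13), Itgb1 was called (0.78), and 5 members were called higher and 0 lower. The median of all tested genes was 0.64 with those values and -0.01 in the main test. Each member that changed sign was below the median of its fit both times, so its place relative to that median did not reverse. Without a filter 17 members were called lower and 0 higher, while 11091 of all 23461 genes with a read were called in either direction. All of the 17 but Itga8, Lama2, Lamb1 and Lamc1 were under 1 RPKM. Of all genes under 1 RPKM with a read, 65.6% were lower in every old library. Leaving out 1 library at a time gave 2 to 4 members called lower, with Itga7 and Lamc3 added without young replicate 2 and Lamb1 without old replicate 3, and the log2 fold change of Itga7 ranged from -0.45 to -0.22. All genes called numbered 1422, against 3946 on the deposited scale, 3286 at a filter of 1 RPKM and 11091 without a filter. The ratio of Itga5 to Itgb1 ranged from -0.0114 to 0.21 (log2) with 1 library left out. That of Lamb1 to Lamc1 ranged from -0.18 to 0.13 with 1 library left out and was -0.13 with reads thinned; the cause was not tested. The replicate numbers are shared by the labels but belong to different animals: deviations of same-numbered libraries correlated at -0.17, -0.06, 0.39 and -0.24, and only the libraries numbered 3 correlated best with each other, so the numbers do not pair the samples. With the replicate block the same 2 members were called and 1298 genes in all. As a measure of depth, 3 reads in a gene of 1 kb are worth 0.458 to 1.57 RPKM in young and 0.121 to 0.149 RPKM in old libraries. The members under 1 RPKM have longer implied lengths, from 2743 bases (Itgb7) to 13978 bases (Itga4), so 3 reads are worth less in them. Whether depth limits these members was not tested.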
